A study of Mus musculus with 12 samples.

Results

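The interaction of genotype and pressure overload in the mouse heart is the difference between 2 surgical effects: the change after transverse aortic constriction (TAC) in lincRNA-p21 knockouts minus the change after TAC in their controls. It was taken over all 12 libraries of the series, with 3 libraries for each of the 4 pairings of genotype (control or knockout) and surgery (sham or TAC). Of 56350 genes in the table, 13916 were tested, those with a normalised read count of at least 10 in at least 3 libraries. All RNA was polyadenylated RNA of the apex of the left ventricle, collected 8 weeks after surgery. Controls were littermates given as heterozygous for lincRNA-p21 (gene symbol Trp53cor1), so they carried 1 intact copy, and the knockout was global, in every cell and not in heart muscle alone. Strain, age, sex, the deleted part of the gene and the identity of the animals are not in the labels. The p-values therefore speak of the spread between libraries, which may be partly technical. In every library the normalised read counts of Y-linked genes summed to 858 or more and Xist stood at 5.79 or less, as in male tissue.

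TAC narrows the aortic arch, so that the left ventricle has to pump against a higher pressure. Heart muscle cells respond by growing and by switching on genes of the fetal heart, fibroblasts lay down matrix, and genes of mitochondrial respiration are often turned down. LincRNA-p21 is a long noncoding RNA that p53 induces, transcribed next to Cdkn1a, the gene of the cell cycle inhibitor p21. A value of 0 for the interaction means that a gene responded to TAC by the same log2 amount in both genotypes. A negative value means that knockouts rose less, or fell more, than controls, and a positive value that they rose more or fell less.

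Recovered reads per library ran from 10323605 to 13238934. Trp53cor1 had 2, 0 and 2 reads in control sham, 4, 0 and 3 in control TAC and 0 in each of the 6 knockout libraries, where 3 counts over 72710005 reads allow up to 0.0413 CPM (counting error only). With 0 reads in 2 control libraries as well, the gene separates the genotypes as groups and not library by library. The ventricular light chain Myl2 stood at a median of 15576 CPM per kilobase of transcript and the adult myosin heavy chain Myh6 at 3902, against 1.26 for the atrial light chain Myl7. Control sham replicate 3 stood apart on the second principal component (score −46.8, the other 11 libraries from −15.6 to 33.7) and had 12.5% mitochondrial reads. That share was 14.7% to 18.7% in the other sham libraries, 15.5% to 17.1% in control TAC and 19.1% to 19.99% in knockout TAC, the highest of the 4 groups; its part in the interaction was not tested. Knockout TAC replicate 3 lay at −15.6 on that component, away from replicates 1 and 2 of its group at 22.9 and 33.7. The total of calls and the counts of the main lists are also given without both of these libraries. Both were picked from these same values, and their removal narrows the spread within their groups, so those counts are no independent support. In tissue RNA, fewer cells of a type and less RNA per cell cannot be told apart.

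The TAC effect differed between genotypes in 43 genes, 41 with a weaker or reversed rise in knockouts and 2 with a weaker or reversed fall (limma-trend on log2(value + 1), Benjamini-Hochberg adjusted p under 0.05 over 13916 genes, percent called 0.309). The 41 genes rose after TAC in controls, by a median of 1.72 on the log2 scale (range 0.83 to 4.38), while their median change in knockouts was −0.029 (range −1.86 to 1.2001). In knockouts 20 of the 41 had an estimate above 0 and 21 below 0, and none of them passed there. Among the 41 are genes of the matrix (Thbs4, Comp, Cilp), of the stressed sarcomere (Myh7, Xirp2, Ankrd1), a mitochondrial coactivator (Ppargc1b) and nuclear noncoding RNAs (Malat1, Kcnq1ot1, Lncpint). None of the 43 changed in the same direction in both genotypes with the larger estimate in knockouts, an arrangement held by 16.3% of all tested genes. In all 41 the 3 control TAC libraries lay above the other 9 libraries, an arrangement found in 9.95% of all tested genes. In Fahd2a, of the other 2, those 3 libraries lay below the other 9 (9.2% of all tested genes). The 43 genes were picked by these same values, so the shares of these arrangements are a description and no independent support.

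Before adjustment 2292 genes had p under 0.05, 1281 with a negative and 1011 with a positive interaction, so positive estimates were common below the threshold and rare among the calls. List counts from other settings have these totals over all tested genes beside them. DESeq2, with an adjusted p for 6901 genes, called 276 negative and 204 positive, and voom 831 and 742. Without both control sham replicate 3 and knockout TAC replicate 3 there were 643 and 500. All 43 genes also passed for TAC in controls (percent called 21.6) and for genotype after TAC (8.23, of which 4.1 higher and 4.13 lower in knockouts), while 0 passed for TAC in knockouts (0.00719) or for genotype after sham (0). These comparisons share libraries with the interaction and are no independent support. Across all tested genes the TAC effects of controls and knockouts, which share no library, had a Pearson r of 0.36 and an SD of 0.60 and 0.34 on the log2 scale. Genes are not independent replicates, and that r is a description. The median interaction over all tested genes was −0.0013, with quartiles of −0.32 and 0.30.

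**Figure D1:**
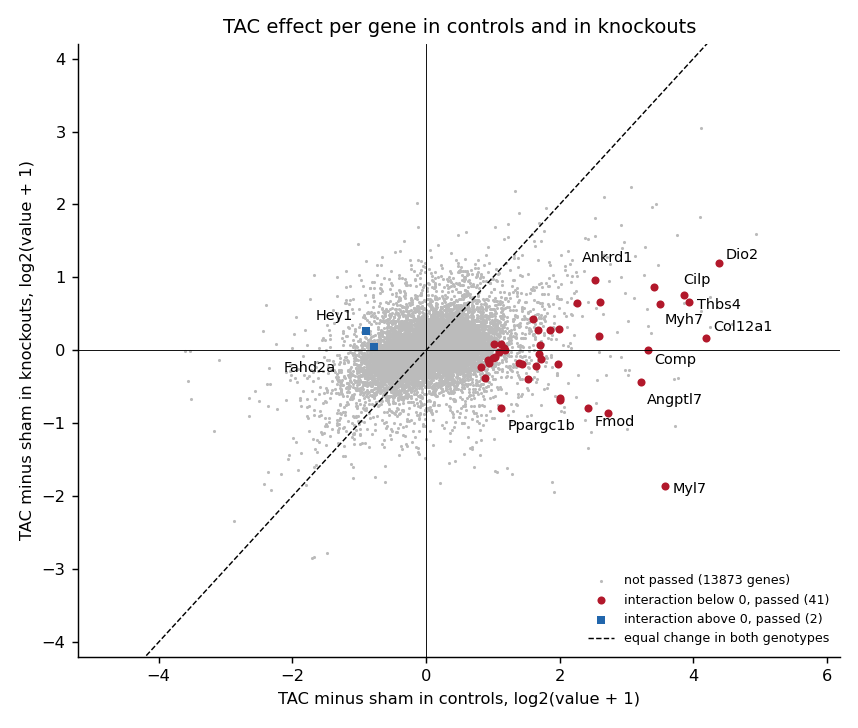
Each point is 1 of 13916 tested genes, with the TAC minus sham difference of log2(value + 1) in controls on the x axis and in knockouts on the y axis; the dashed line marks an equal change in both. The 41 red genes lie right of 0 and under the line, and the 2 blue genes lie left of 0 and over it.

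Matrix and matricellular genes formed the first group. Thbs4 (ENSMUSG00000021702.7, GRCm38 chromosome 13, 92751590 to 92794818), a matricellular thrombospondin, had the smallest p. Its normalised read counts were 59.7, 65.5 and 61.9 in control sham, 779, 1177 and 991 in control TAC, 74.3, 51.1 and 50.7 in knockout sham and 121, 91.0 and 70.9 in knockout TAC. All control TAC values lay above the highest value of any other group, while knockout TAC replicate 3 lay inside the range of the knockout sham libraries. The TAC effect was 3.94 in controls and 0.66 in knockouts, an interaction of −3.27 ± 0.31 (SE; limma-trend adjusted p = 0.00011). Comp (ENSMUSG00000031849.9, chromosome 8, 70373558 to 70382066), another thrombospondin, known from cartilage, read 39.4, 35.1 and 64.4 in control sham and 376, 546 and 459 in control TAC, against 28.5, 31.0 and 40.7 in knockout sham and 22.2, 43.3 and 38.2 in knockout TAC. Its knockout groups overlapped and the estimate in knockouts was 0.010, so the interaction was −3.31 ± 0.40 (adjusted p = 0.0018).

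Cilp (ENSMUSG00000042254.14, chromosome 9, 65265180 to 65280605), a matrix protein that binds TGF-beta, was at 2007, 2241 and 1487 in control TAC and at 286, 358 and 137 in knockout TAC, with sham libraries at 123 to 136 in controls and 118 to 183 in knockouts. In knockout TAC replicate 3 Cilp was thus at the sham level and in replicates 1 and 2 above it (interaction −3.09 ± 0.40, adjusted p = 0.0043). Ltbp2, a TGF-beta binding protein relative in elastic fibres, had the same layout, with 85.0, 119.8 and 43.6 in knockout TAC and 528 to 819.9 in control TAC (−2.55 ± 0.42, adjusted p = 0.017). Fmod, fibromodulin, a small proteoglycan on collagen fibrils, went from 58.1 ± 32.2 (mean ± SD, n = 3) to 291 ± 56.4 in controls and from 45.5 ± 3.05 to 28.001 ± 12.3 in knockouts (−3.22 ± 0.52, adjusted p = 0.015). Here the knockout TAC libraries (37.7, 32.2 and 14.2) all lay under the knockout sham libraries.

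Collagens of the fibril surface and the cell border were among the calls. Col12a1, which decorates collagen I fibrils, was at 173, 220.4 and 172 in control TAC and at 5.79, 28.8 and 5.45 in knockout TAC, an uneven knockout group in which replicate 2 alone stood above sham (−4.03 ± 0.74, adjusted p = 0.027). Col8a1, a short-chain collagen, had an interaction of −1.61 ± 0.30, adjusted p = 0.032, and Col5a2, which sets the width of collagen fibrils, one of −1.02 ± 0.18, adjusted p = 0.025. Col5a2 was at 838 to 946 in control TAC and between 341 and 461 in the other 9 libraries, whose groups overlapped. Svep1, a large secreted adhesion protein (−1.62 ± 0.25, adjusted p = 0.0096), Lama2, the laminin chain of the muscle basement membrane (−1.11 ± 0.22, adjusted p = 0.039), and Angptl7, a secreted angiopoietin-like protein (−3.64 ± 0.74, adjusted p = 0.048), were further secreted proteins that passed. With the trend in length and GC content taken out, none of these collagens and secreted proteins passed (limma-trend adjusted p from 0.074 for Angptl7 to 0.23 for Lama2). Col5a2 then stood at −0.67 and Lama2 at −0.56. Col12a1 also lost its call in edgeR. Angptl7 overlaps Mtor on the opposite strand and its control TAC values ran from 83.9 to 111; the library kit marks strand, but the strand setting of the counting is not given in the labels, so reads of the pair cannot be told apart.

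Of 64 genes listed for extracellular matrix and activated fibroblasts, 63 were tested, 9 had a negative interaction that passed, 0 a positive one and 54 did not pass (all tested genes: 0.295% negative, 0.0144% positive). Without both control sham replicate 3 and knockout TAC replicate 3 the list held 21 negative and 0 positive calls (all 13916 tested genes: 643 and 500). The gene lists were chosen with earlier results of these data known, so such counts are a description and no test. The list's median interaction was −0.62 (all tested genes −0.0013), with 57 of 63 estimates below 0, a median TAC effect of 0.81 in controls and 0.12 in knockouts. The 9 were Thbs4, Comp, Cilp, Ltbp2, Fmod, Col12a1, Col8a1, Col5a2 and Angptl7. Postn, periostin of activated fibroblasts, came close without passing (−1.55 ± 0.32, adjusted p = 0.057), at 2376, 2878 and 2546 in control TAC and 886, 1015 and 529 in knockout TAC. The collagens that make up most of the scar had smaller estimates, −0.63 ± 0.17, adjusted p = 0.099 for Col1a2, −0.62 ± 0.21, adjusted p = 0.17 for Col3a1 and −0.47 ± 0.21, adjusted p = 0.27 for Col1a1. Spp1 (osteopontin, −2.74 ± 0.81, adjusted p = 0.12) and Timp1, an inhibitor of matrix proteases (−0.97 ± 0.59, adjusted p = 0.43), did not pass either, with wide errors. Of the 16 fibroblast markers 0 passed (6 negative at an unadjusted p under 0.05, and 3 negative calls without the 2 libraries that stood apart), their median interaction was −0.22, and their summed level was 33992 to 41974 in control sham, 34808 to 36578 in knockout sham, 35998 to 37129 in control TAC and 26759 to 34602 in knockout TAC, with no marker at 0 in all libraries. Their part in the matrix result was not tested.

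**Figure D2:**
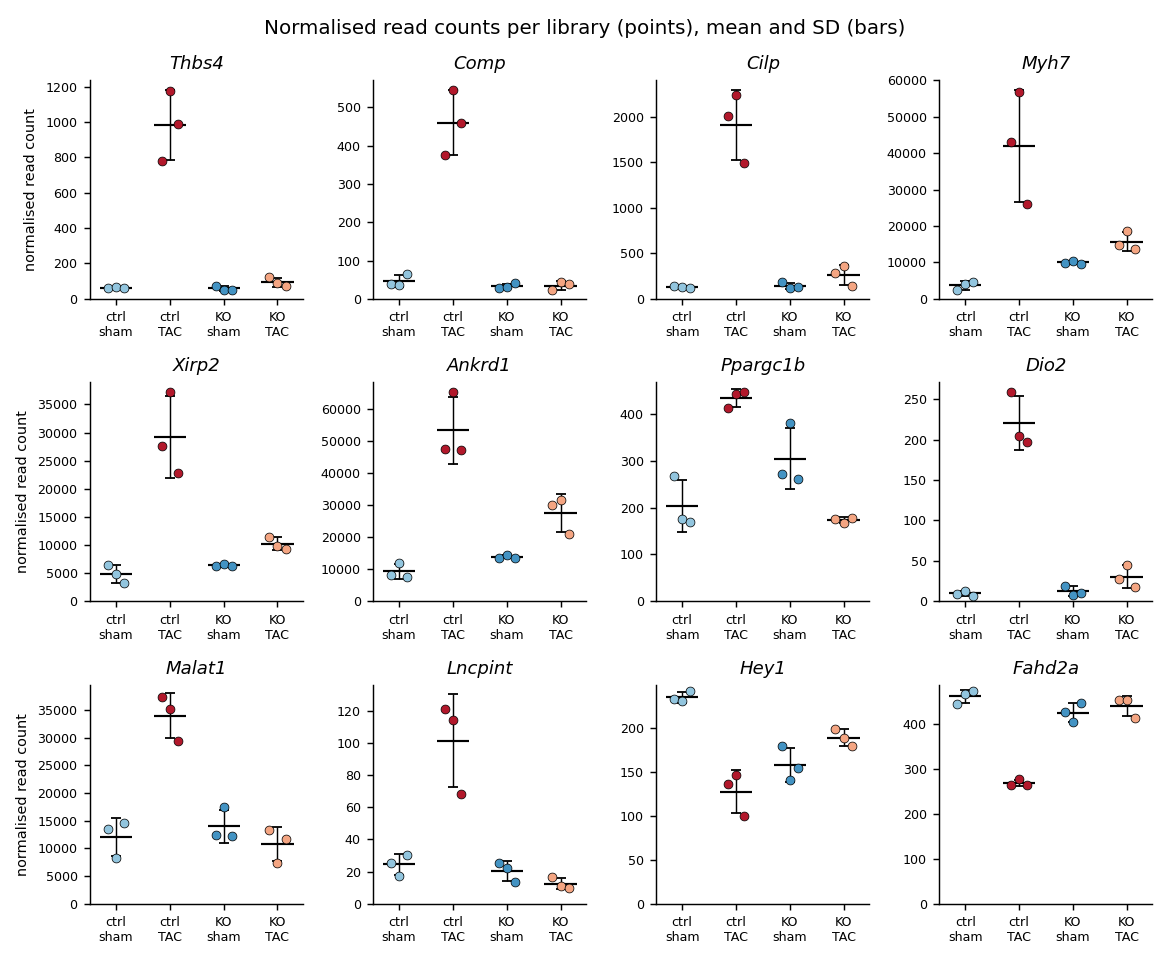
Normalised read counts (y axes, linear from 0, a scale per gene) in the 3 libraries of each group for 12 genes that passed; points are libraries, the long bar is the group mean and the error bar its SD. Control TAC stands alone in the first 10 panels and in Fahd2a, and in Hey1 it overlaps the knockout sham libraries.

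Genes of the stressed and fetal heart muscle cell formed the next group. Myh7 (ENSMUSG00000053093.16, chromosome 14, 54970684 to 54994626), which encodes beta myosin heavy chain, the fetal isoform, was at 2429, 3978 and 4584 in control sham, 43077, 56882 and 26011 in control TAC, 9949, 10469 and 9592 in knockout sham and 14850.0, 18722 and 13567 in knockout TAC. No group overlapped another, and knockouts were above controls after sham and below them after TAC. The TAC effect was 3.50 in controls and 0.64 in knockouts, an interaction of −2.86 ± 0.37, adjusted p = 0.0043. Of that difference, −1.36 came from the TAC libraries and 1.498, with the opposite sign, from the sham libraries, although the genotype difference after sham did not pass by itself (adjusted p = 0.67). Reads shared with the close paralogue Myh6 could be split between both genes. Myh6 itself had an interaction of −0.39 ± 0.23, adjusted p = 0.41.

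Xirp2, an actin-binding protein of the intercalated disc (ENSMUSG00000027022.13, chromosome 2, 67446002 to 67526614), was at 22848 to 37256 in control TAC and at 11497, 9801 and 9309.6 in knockout TAC, where every library lay above the knockout sham range of 6231 to 6715. The knockout TAC libraries therefore held an intermediate level (−1.95 ± 0.29, adjusted p = 0.0096). Ankrd1 (ENSMUSG00000024803.9, chromosome 19, 36111961 to 36120099), a titin-binding stress protein, was intermediate too, at 30110.3, 31786 and 20914 in knockout TAC against 13591 to 14512 in knockout sham and 47204 to 65538 in control TAC (−1.57 ± 0.27, adjusted p = 0.020). Enah, which extends actin filaments, went up in controls by 1.60 with an estimate of 0.43 in knockouts (−1.17 ± 0.21, adjusted p = 0.027). The giant sarcomere spring Ttn was at 151091, 149887 and 117843 in control TAC and at 43565, 29288 and 58798 in knockout TAC, where the libraries overlapped the 3 knockout sham libraries at 42542 to 53491 (−2.16 ± 0.33, adjusted p = 0.014). Dst, a plakin that links cytoskeletal filaments, had an interaction of −1.74 ± 0.27, adjusted p = 0.010, and Filip1, a filamin-interacting protein, one of −1.12 ± 0.20, adjusted p = 0.025; their estimates in knockouts were −0.045 and −0.029.

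The atrial light chains Myl4 and Myl7 passed as well. Myl4 was at 174, 159 and 213 in control TAC and at 39.6, 28.8 and 43.6 in knockout TAC, overlapping knockout sham at 29.2 to 34.6 (−2.40 ± 0.44, adjusted p = 0.028). Myl7 was at 115, 95.8 and 212 in control TAC, 2.90, 2.22 and 0 in knockout TAC, 25.6, 5.70 and 6.78 in control sham and 18.3, 10.04 and 1.81 in knockout sham (−5.44 ± 1.02, adjusted p = 0.032). With values this low the log2(value + 1) scale depends on the pseudocount, and the Myl7 estimate ran from −6.23 to −4.16 over the alternative settings. Both are atrial markers. Of the 14 atrial markers 13 were tested, these 2 passed (0.295% of all tested genes passed in that direction; 4 negative and 1 positive passed without the 2 libraries that stood apart), the median interaction was −0.17, and the summed level was 14102 to 19825 in control sham, 23002 to 33702 in control TAC, 18105 to 18951 in knockout sham and 17568 to 20975 in knockout TAC, with no marker at 0 in all libraries. Sln, sarcolipin of atrial muscle, was at 24.9, 40.2 and 69.9 in control TAC and at 0 in 5 of the 6 knockout libraries, so that its estimate depends on the pseudocount (−3.93 ± 0.97, adjusted p = 0.085), and the atrial marker Stard10 had an estimate of the other sign (0.94 ± 0.22, adjusted p = 0.075). The part of atrial tissue in these results was not tested.

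In the list of hypertrophy and fetal genes 31 of 32 members were tested, 6 had a negative interaction that passed (Myh7, Xirp2, Ankrd1, Enah, Myl4, Myl7), 0 a positive one and 25 did not pass (0.295% and 0.0144% of all tested genes passed). Without the 2 libraries that stood apart there were 8 negative and 0 positive calls (all 13916 tested genes: 643 and 500). DESeq2 called 10 negative and 0 positive (all tested genes: 276 and 204), and voom 10 and 1 (831 and 742). This list too was chosen with earlier results known, so its counts are a description. The median interaction was −0.78, with a median TAC effect of 1.41 in controls and 0.19 in knockouts, and 25 of 31 estimates were below 0. Several textbook markers of overload did not pass in limma-trend over all libraries. Acta1, skeletal alpha-actin, was at 49822, 40026 and 36536 in control TAC and at 24979, 24992 and 9170.0 in knockout TAC (−2.28 ± 0.52, adjusted p = 0.087). Nppa, atrial natriuretic peptide, had −1.90 ± 0.59, adjusted p = 0.16, Nppb, brain natriuretic peptide, −1.32 ± 0.70, adjusted p = 0.38, and Rcan1, a calcineurin regulator, −1.23 ± 0.45, adjusted p = 0.21. For Nppb the genotype difference was 1.27 after sham and −0.049 after TAC, so its estimate rests on the sham libraries. The adult contraction genes other than Ttn did not pass (1 of 20 called; median 0.25). Of these 20, DESeq2 called 3 negative and 5 positive, voom 4 and 8, and the fit without the 2 libraries that stood apart 4 and 6. Tnni3, cardiac troponin I, had 0.78 ± 0.19, adjusted p = 0.085 and Myl2 0.71 ± 0.22, adjusted p = 0.14.

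The promoters of 4 genes that passed are shown, picked after their values were seen. In each the 3 control TAC libraries lay above the other 9, as in all 41 genes with a negative interaction, although knockout levels differed between the genes. The windows are the 250 bases before the RefSeq start on GRCm38.p6 for Thbs4 (chr13:92794819-92795068, minus strand), Cilp (chr9:65264930-65265179, plus strand), Myh7 (chr14:54994627-54994876, minus strand, the first of its 2 listed starts) and Ankrd1 (chr19:36119845-36120094, minus strand). Capitals mark matches on either strand to GGAATG, the core of the MCAT element bound by TEAD factors, to TGANTCA of AP-1, or to AGATAA of GATA factors; in Thbs4 the pair of matches to GGAATG shares a base, and in Ankrd1 the last capitals are the GATA match.
Thbs4: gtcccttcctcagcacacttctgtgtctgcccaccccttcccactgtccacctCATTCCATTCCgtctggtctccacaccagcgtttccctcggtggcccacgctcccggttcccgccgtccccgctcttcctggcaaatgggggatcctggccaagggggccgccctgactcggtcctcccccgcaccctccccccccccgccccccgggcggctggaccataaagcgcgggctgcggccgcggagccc
Cilp: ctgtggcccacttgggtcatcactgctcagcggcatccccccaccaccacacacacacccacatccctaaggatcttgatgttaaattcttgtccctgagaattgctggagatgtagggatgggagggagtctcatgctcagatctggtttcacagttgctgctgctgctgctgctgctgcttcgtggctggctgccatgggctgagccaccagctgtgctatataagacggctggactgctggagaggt
Myh7: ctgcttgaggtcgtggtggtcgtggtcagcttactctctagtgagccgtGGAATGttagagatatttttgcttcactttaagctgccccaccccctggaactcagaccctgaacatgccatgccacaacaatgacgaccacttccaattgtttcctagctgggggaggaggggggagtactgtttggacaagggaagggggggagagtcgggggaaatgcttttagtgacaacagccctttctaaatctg
Ankrd1: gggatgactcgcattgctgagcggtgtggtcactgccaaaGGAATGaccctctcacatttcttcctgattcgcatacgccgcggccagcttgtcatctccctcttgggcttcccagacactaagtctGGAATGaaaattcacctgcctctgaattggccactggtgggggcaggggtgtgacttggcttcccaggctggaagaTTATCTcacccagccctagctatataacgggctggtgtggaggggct

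GGAATG began 197 and 192 bases before the Thbs4 start, 201 before the Myh7 start and 210 and 123 before the Ankrd1 start, and these windows of Thbs4 and Myh7 held no match to the other motifs. The window of the other listed Myh7 start held no match to any of the motifs. The Cilp window held no match to the 3 motifs. Promoters on chromosome 18, which holds Ppargc1b, were left out of this count. RefSeq promoters on the other chromosomes were matched for 31 of the 43 genes (38 promoters in all). Of these promoters 8 held GGAATG, 2 TGANTCA and 3 AGATAA. The shares were 21.1%, 5.26% and 7.89%, against 11.02%, 4.52% and 5.87% of the 13383 promoters of tested genes outside chromosome 18. Among all 32851 promoters outside that chromosome they were 12.6%, 6.75% and 9.99%. A match of letters is a description and does not show that a factor binds.

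A pair of metabolic regulators passed. Ppargc1b (ENSMUSG00000033871.14), the PGC-1beta coactivator of mitochondrial genes, was at 268, 176 and 169 in control sham and 413, 444 and 447 in control TAC, and at 273, 380.4 and 261 in knockout sham and 176, 166 and 179 in knockout TAC. The knockout groups did not overlap, and their order was opposite to that of the controls: 1.12 in controls and −0.79 in knockouts, where the change did not pass (interaction −1.91 ± 0.26, adjusted p = 0.0043). Its relative Ppargc1a had −1.32 ± 0.37, adjusted p = 0.12. Dio2 (ENSMUSG00000007682.6), the deiodinase that activates thyroid hormone, was at 198 to 258 in control TAC, 28.002, 45.5 and 17.5 in knockout TAC and 19.3 or less in every sham library (−3.18 ± 0.54, adjusted p = 0.018).

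Nuclear genes of the respiratory chain had estimates of the other sign without a call in limma-trend over all libraries. Of 35 complex I subunits 0 passed, 34 had an estimate above 0 and 32 an unadjusted p under 0.05 (smallest adjusted p = 0.096). With edgeR 0 passed, with DESeq2 19, with voom and sample quality weights 32 and without the 2 libraries that stood apart 30, each with a positive interaction. Over all 13916 tested genes the positive calls were 2 with edgeR, 204 with DESeq2, 742 with voom and 500 without the 2 libraries. At an unadjusted p under 0.05, 1011 of all tested genes had a positive interaction. The median TAC effect of the complex I subunits was −0.78 in controls and −0.11 in knockouts, a median interaction of 0.66, with Ndufa5 (0.86 ± 0.23, adjusted p = 0.096) and Ndufs6 (0.86 ± 0.23, adjusted p = 0.096). Of 40 nuclear subunits of complexes II to V 0 passed (29 positive and 1 negative at an unadjusted p under 0.05; without the 2 libraries 31 and 1 calls), and their median was 0.56, with Uqcrq of complex III at 0.89 ± 0.23, adjusted p = 0.096 and Cox4i1 of complex IV at 0.77 ± 0.21, adjusted p = 0.11. Fatty acid genes had a median of 0.13 over 40 members, and Ppargc1b was the member that passed; without the 2 libraries 9 positive and 1 negative passed. Ech1, an enoyl-CoA isomerase (0.84 ± 0.18, adjusted p = 0.059), the thiolase Acaa2 (0.72 ± 0.17, adjusted p = 0.076) and Etfb, an electron carrier (0.98 ± 0.26, adjusted p = 0.10), had positive estimates that did not pass. Glycolysis (23 genes, median 0.17) and the TCA cycle (24 genes, median 0.015) held no call in limma-trend or edgeR. The TCA cycle held 4 positive calls in DESeq2, 9 in voom and 9 without the 2 libraries, and glycolysis 4, 4 and 5, the last with 1 negative call besides.

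The noncoding RNAs Malat1, Kcnq1ot1 and Lncpint passed; they were picked from the calls and come from no list. Malat1, an abundant RNA of nuclear speckles (ENSMUSG00000092341.3), was at 37317, 35148 and 29453 in control TAC and at 13238, 7397 and 11756 in knockout TAC, with sham libraries from 8171 to 17414 (−1.92 ± 0.34, adjusted p = 0.026). Kcnq1ot1, an imprinted RNA read antisense to the potassium channel gene Kcnq1, had −1.86 ± 0.32, adjusted p = 0.021; Kcnq1, the more abundant of the pair, had an interaction of 0.16 (adjusted p = 0.76), and their reads cannot be told apart either. Lncpint, a noncoding RNA that p53 induces, was at 121, 114 and 68.1 in control TAC and 16.4, 11.1 and 9.82 in knockout TAC, with 25.4, 21.9 and 13.6 in knockout sham (−2.65 ± 0.49, adjusted p = 0.028). The knockout TAC libraries overlapped the knockout sham libraries in each of these 3 genes, and with the trend in length and GC content taken out Lncpint alone of them passed. Lncpint overlaps other annotated genes on both strands. The predicted genes Gm37084, Gm26762 and Gm10524 also passed and are not described.

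The other 13 genes with a negative interaction encode membrane, trafficking, signalling and chromatin proteins. Atp8a2, a phospholipid flippase, was at 88.4, 77.9 and 87.3 in control sham, 283, 349 and 296 in control TAC, 120.0, 139.6 and 154 in knockout sham and 169.9, 171 and 158 in knockout TAC (−1.58 ± 0.22, adjusted p = 0.0043). Both knockout groups lay between the control groups. Fat1, an atypical cadherin, had −1.63 ± 0.27, adjusted p = 0.017, the endocytic receptor Lrp1 −1.26 ± 0.23, adjusted p = 0.025, and the phosphatase Ppm1e −1.70 ± 0.32, adjusted p = 0.029. The lipid transfer proteins Vps13c and Vps13d had −1.56 ± 0.30 and −1.06 ± 0.21, and the kinase anchor Akap9 −1.13 ± 0.22. Ash1l, a histone methyltransferase, had −1.06 ± 0.22, Tnks, the polymerase tankyrase, −0.93 ± 0.19, and Samd4, a repressor of translation, −1.14 ± 0.23. Prune2 had −1.39 ± 0.24, Heatr5a −1.17 ± 0.22 and Ankrd17 −1.11 ± 0.22. The TAC estimates of these 13 genes in knockouts ran from −0.38 to 0.29. None of the 13 passed with the trend in length and GC content taken out, where the estimates ran from −1.33 to −0.27; Lrp1 went to −0.58, Akap9 to −0.46, Ash1l to −0.43 and Vps13d to −0.27.

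In the other direction 2 genes passed. Hey1, a transcriptional repressor downstream of Notch (ENSMUSG00000040289.8, chromosome 3, 8663359 to 8667256), was at 232, 229.8 and 242 in control sham, 136, 146 and 99.8 in control TAC, 179, 140.5 and 154 in knockout sham and 198, 189 and 179 in knockout TAC. It fell in controls by 0.89 on the log2 scale and its estimate in knockouts was 0.26 (interaction 1.15 ± 0.23, adjusted p = 0.044). Fahd2a, a fumarylacetoacetate hydrolase family member (ENSMUSG00000027371.10), was at 264, 277 and 265 in control TAC and between 404 and 474 in the other 9 libraries (0.83 ± 0.16, adjusted p = 0.039). Next in that direction, with adjusted p from 0.051 to 0.066, came Bcar3, Spint2, Ech1, Tesc, Rtn2, Gstk1, Ttll1, Hlx, Crip2 and Tnnt1, with estimates from 0.77 to 1.40 that did not pass. Among these Tnnt1, slow skeletal troponin T, had a TAC estimate of −1.54 in controls and −0.29 in knockouts.

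Since the interaction equals the genotype difference after TAC minus that after sham, each call can be divided between these arms. In 40 of the 41 genes with a negative interaction the TAC libraries gave over 50% of it, with a median share of 83.4% (range 47.6% to 121%), and the exception was Myh7. After sham, knockouts had the higher estimate in 31 of the 41 and the lower in 10 (median 0.22, against 0.025 over all tested genes). After TAC the median genotype difference of the 41 was −1.52. Shares over 100%, as in Lrp1 or Ltbp2, arise where the sham difference has the same sign as the TAC difference. Hey1 was divided evenly, with −0.58 after sham and 0.58 after TAC.

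**Figure D3:**
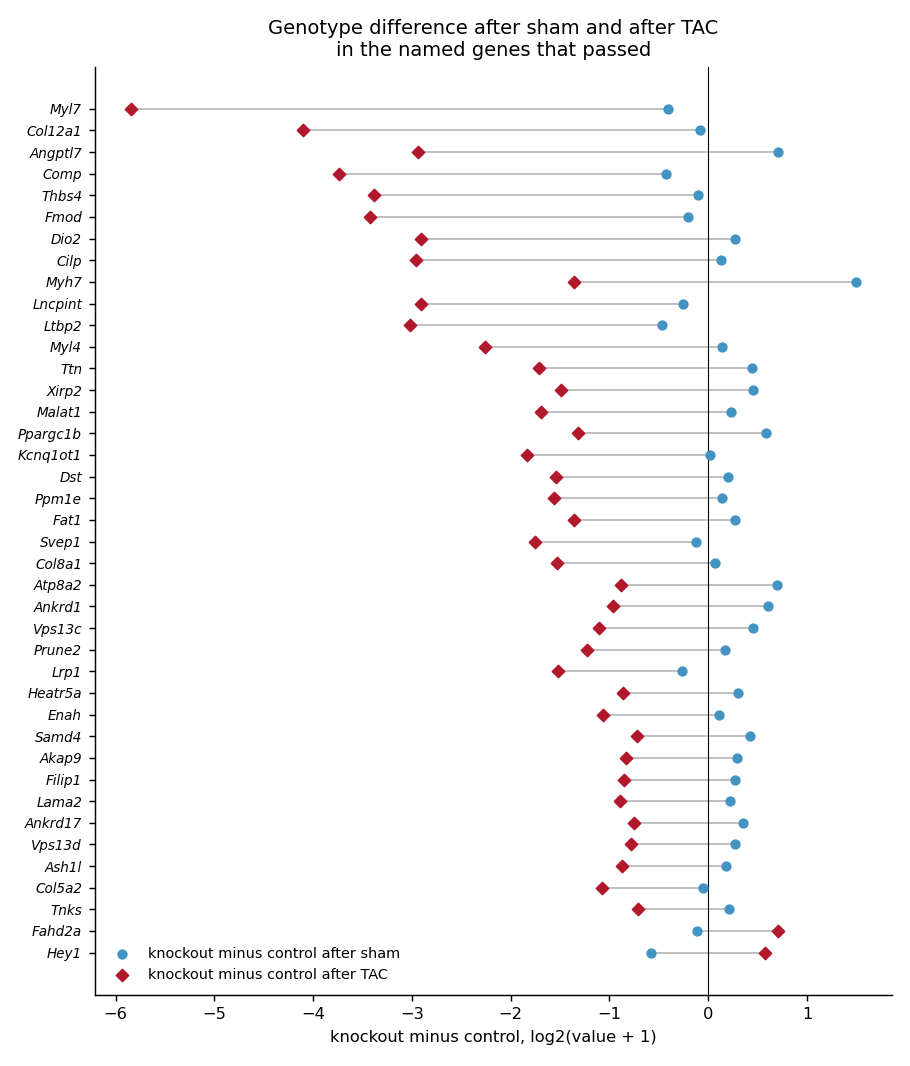
Knockout minus control difference of log2(value + 1) after sham (blue circles) and after TAC (red diamonds) in the 40 named genes that passed, ordered by interaction, which is the distance from circle to diamond. The diamonds of the 38 genes with a negative interaction lie below 0; Myh7 has its circle far to the right.

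Markers of mesothelial, erythroid and endothelial cells held no call in limma-trend over all libraries. The mesothelial markers, of the cells that cover the heart, had the highest median of the 34 lists, 2.08 over 13 of 16 markers with 0 calls in limma-trend, edgeR and DESeq2 (5 unadjusted); their summed level was 1080.4 to 1713 in control sham, 782 to 1001 in control TAC, 1206 to 1359 in knockout sham and 974 to 1294 in knockout TAC. Upk3b, a uroplakin of that layer, had 3.13 ± 0.89, adjusted p = 0.13. DESeq2 gave an adjusted p to 6901 of the 13916 tested genes. Its 0 calls among mesothelial markers therefore need not mean that each of them could be called. Erythroid markers had a median of 1.27 over 8 of 11 (0 calls), 6 unadjusted, 3 calls in DESeq2 and 6 without the 2 libraries that stood apart, with sums from 7500.1 to 9038 in control sham, 6855 to 8155 in knockout sham, 4796 to 6454 in control TAC and 5295 to 13147 in knockout TAC, and Alas2, of heme synthesis, had 1.32 ± 0.35, adjusted p = 0.10. Endothelial markers had a median of 0.45 (21 markers, 0 calls, and 1 positive and 2 negative without the 2 libraries) and sums of 40730.1 to 61637 in control sham, 39510.0 to 41678 in knockout sham, 35817 to 36741 in control TAC and 39587 to 41164 in knockout TAC. No marker of these 3 lists was at 0 in all libraries, and their part in the calls was not tested.

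Among immune genes the interferon response list had a median interaction of 0.55, with 36 of 41 estimates above 0 and 0 calls (10 unadjusted, 3 calls in DESeq2, 9 in voom, 4 without the 2 libraries that stood apart, all positive). The list's median TAC effect was −0.23 in controls and 0.30 in knockouts. Psmb8, a subunit of the immunoproteasome, had 1.36 ± 0.31, adjusted p = 0.067, and Bst2, an antiviral membrane protein, 0.93 ± 0.30, adjusted p = 0.15. Nlrc3, a regulator of innate immune signalling, was at 257, 411 and 315 in control TAC and 116, 83.2 and 106 in knockout TAC; it was higher after TAC than after sham in every library of both genotypes and did not pass for the interaction (−1.41 ± 0.33, adjusted p = 0.075). Of 19 macrophage markers 17 were tested and 0 passed (1 unadjusted; median 0.26), with Trem2 at 0 in all libraries. Voom and the fit without the 2 libraries that stood apart each gave 1 positive call.

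**Figure D4:**
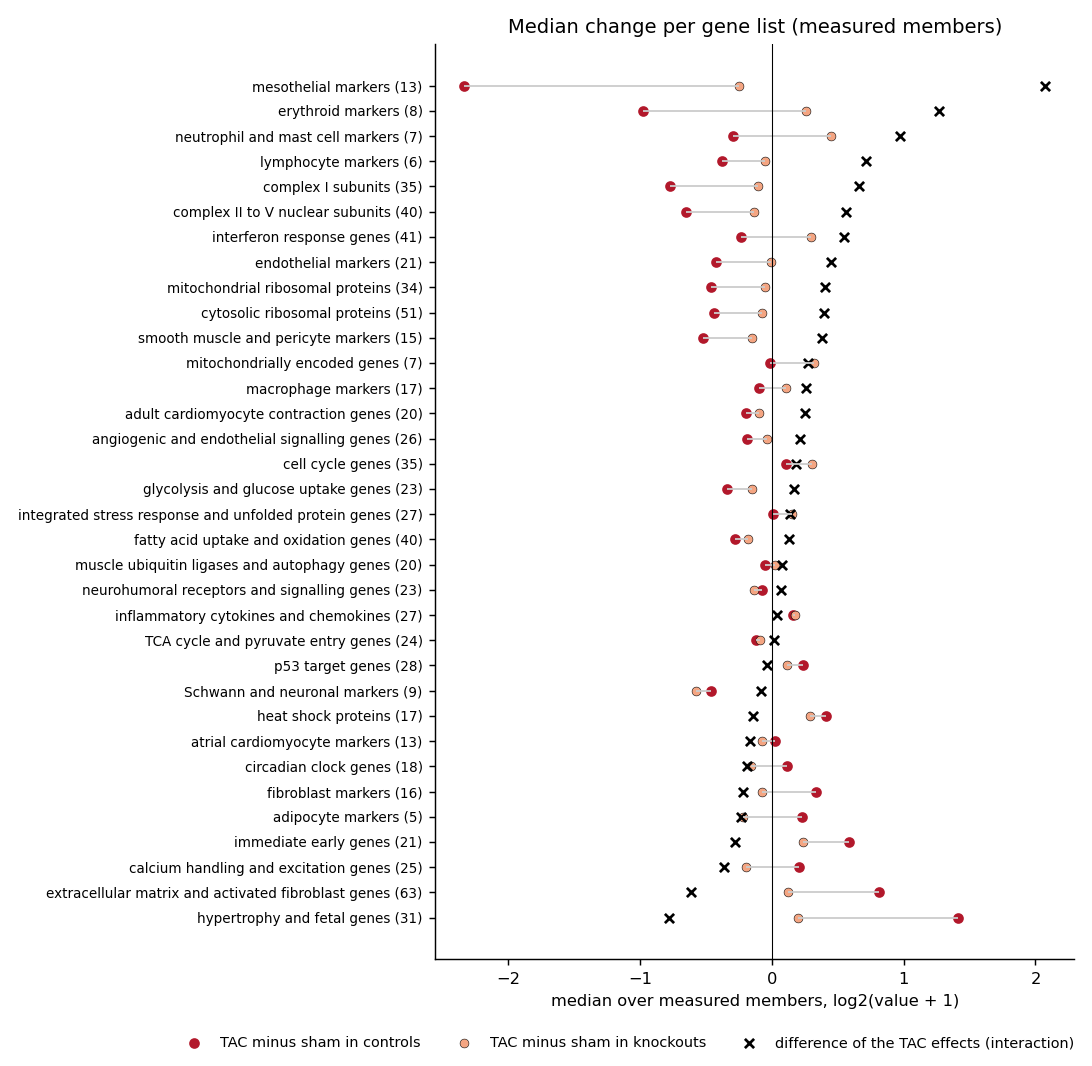
Median TAC minus sham difference of log2(value + 1) in controls (red), in knockouts (orange) and median interaction (crosses) over the measured members (number in brackets) of each gene list. Hypertrophy and matrix lists lie at the bottom with crosses at −0.78 and −0.62, and mesothelial markers at the top at 2.08.

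The genes listed for the p53 pathway, in which lincRNA-p21 lies, held no call in limma-trend, edgeR or DESeq2. Lncpint, which p53 induces and which passed in limma-trend, was not on that list. DESeq2 gave an adjusted p to 6901 of the 13916 tested genes. Voom gave 1 negative call, as did the fit without the libraries that stood apart. Of 29 p53 targets and regulators 28 were tested, with a median interaction of −0.035, 14 estimates below 0 and 1 unadjusted p under 0.05. Cdkn1a (ENSMUSG00000023067.14, chromosome 17, 29090976 to 29100727), the neighbour of Trp53cor1, was at 361, 746 and 658 in control sham, 560.2, 1041 and 135 in control TAC, 300.1, 265 and 269.6 in knockout sham and 266, 236 and 293 in knockout TAC. The control libraries were spread widely in both surgeries and the knockout libraries were close together. Its interaction was 0.31 ± 0.85, adjusted p = 0.89, with a 95% interval from −1.60 to 2.22, so differences of several fold in either direction lie within it. Trp53 itself had 0.48 ± 0.24, adjusted p = 0.33 and the p53 target Zmat3 −0.59 ± 0.27, adjusted p = 0.28.

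The interaction followed transcript length across genes. Spearman's rho with the length of the longest transcript was −0.45 (a description across genes), and with GC content 0.26. The median interaction was 0.42 in 798 genes under 1 kb and −0.54 in 794 genes over 8 kb, and 18 of the 43 calls were among the latter (2.27% of them, against 0.309% of all tested genes). The median length was 6.77 kb in the 43 genes and 3.35 kb in all tested genes. Each of the 3 control TAC libraries held relatively more reads of long transcripts (rho 0.33 to 0.41 with the deviation from the gene mean), and the other 9 ran from −0.34 to 0.15. Once each library's trend with length and GC content was taken out, 16 genes passed, 15 negative and 1 positive, of which 13 were among the 43: Thbs4, Comp, Cilp, Fmod, Myh7, Xirp2, Ankrd1, Myl4, Myl7, Ppargc1b, Lncpint, Gm37084 and Gm10524. Ttn (−0.80, adjusted p = 0.14), Dst (−0.78, 0.084), Vps13d (−0.27, 0.54) and Malat1 (−1.51, 0.13) did not pass then. The list medians became −0.85 for hypertrophy genes (5 calls), −0.43 for matrix genes (4 calls) and 0.43 for complex I (0 calls).

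**Figure D5:**
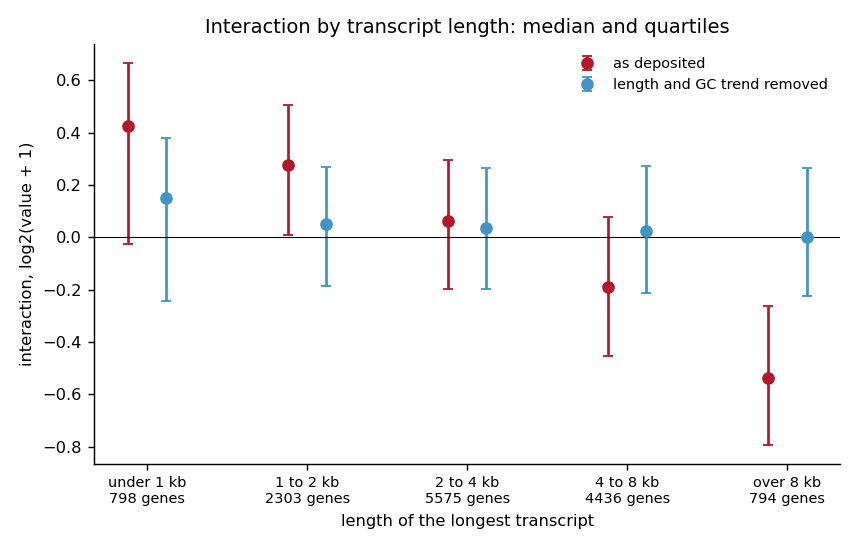
Median interaction (points) and quartiles (bars) of log2(value + 1) in 5 classes of transcript length, from the deposited values (red) and with each library's trend with length and GC content taken out (blue). The red medians run from 0.42 in the shortest to −0.54 in the longest class, the blue ones from 0.15 to 0.0017.

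The number of calls and their split by sign depended on single libraries, while the estimates of the 43 genes kept their sign. Leaving out 1 library gave 22 to 755 calls for control sham (755 without replicate 1, 22 without replicate 2, 102 without replicate 3), 14 to 30 for knockout sham (30, 14 and 16), 8 to 55 for control TAC (21, 8 and 55) and 21 to 283 for knockout TAC (21, 24 and 283). Positive calls were 2 of 43 over all libraries, 236 of 755 without control sham replicate 1, 25 of 102 without control sham replicate 3 and 93 of 283 without knockout TAC replicate 3. Without both control sham replicate 3 and knockout TAC replicate 3, the libraries that stood apart, 1143 genes passed, 643 negative and 500 positive. All 43 were among them. That setting leaves 2 libraries in control sham and 2 in knockout TAC, and the libraries left out were picked from these same values. Thbs4, Comp, Cilp, Myh7, Xirp2 and Ppargc1b passed in every alternative setting that gave them an adjusted p, and Svep1 and Atp8a2 whenever 1 library was left out. With the length and GC trend removed, neither Svep1 (−1.01, limma-trend adjusted p = 0.15) nor Atp8a2 (−0.89, adjusted p = 0.15) passed. Without control TAC replicate 2 these 8 genes were the calls that remained. The other 35 lost their call without at least 1 library, and no estimate of the 43 changed sign in any of the 27 settings. Missing calls were unsettled too: of 176 named genes that did not pass, 101 passed in at least 1 alternative setting.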

How the data were processed

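Polyadenylated RNA of 12 left ventricle apexes was sequenced, 3 per group. Per the submitters' processing notes STAR, SAMtools and featureCounts were used with GRCm38.p6; for versions, normalisation, annotation and strand setting, nothing is given in the sources used here. The table the authors deposited is a signal, reads per gene divided by a factor per library, as its values show: 100% of values above 0 are whole multiples of the smallest within 0.01, which gave back whole reads. Of 56350 IDs 55480 matched GENCODE M21.

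limma-trend (limma 3.58.1, R 4.3.3, robust moderation) used log2(value + 1) and 4 group means; p-values were adjusted by Benjamini-Hochberg over 13916 genes. This scale understates changes of low genes. Differences are given ± SE, group means ± SD. edgeR 4.0.16 (quasi-likelihood), DESeq2 1.42.0 and voom on recovered reads were alternatives, besides those in the closing section. Chi-square per gene between libraries of a group was 5.32 to 57.0, so none was a copy.

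The members, lists and tests were chosen with earlier results of these data known. Named were the 12 highest and 12 lowest interactions among genes that passed at a mean of at least 1 CPM, filled by the smallest p, up to 5 members per list, a set of heart genes, and 3 per arrangement of the TAC effects. The remaining genes that passed, the 3 predicted genes, Kcnq1, Mtor and the 4 promoters were added after their values were seen. Tables and figures were made with Python 3.11.15, pandas 2.3.3, scipy 1.17.1 and matplotlib 3.10.9.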

Additional observations from a re-analysis of the deposited data

Results flagged for a closer look

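A gene is listed here where the effect of TAC in knockouts and in controls differed by the test of that difference itself, with the log2 interaction (knockouts minus controls) in brackets. By rising p-value the first were Thbs4 (−3.27), Comp (−3.31), Ppargc1b (−1.91), Atp8a2 (−1.58), Cilp (−3.09), Myh7 (−2.86), Svep1 (−1.62), Xirp2 (−1.95), Dst (−1.74), Ttn (−2.16), Fmod (−3.22), Ltbp2 (−2.55), Fat1 (−1.63) and Dio2 (−3.18). They were followed by Ankrd1 (−1.57), Kcnq1ot1 (−1.86), Prune2 (−1.39), Filip1 (−1.12), Lrp1 (−1.26), Col5a2 (−1.02), Malat1 (−1.92), Col12a1 (−4.03), Enah (−1.17), Myl4 (−2.40), Lncpint (−2.65) and Ppm1e (−1.70), and then by Col8a1 (−1.61), Heatr5a (−1.17), Myl7 (−5.44), Vps13c (−1.56), Akap9 (−1.13), Lama2 (−1.11), Ankrd17 (−1.11), Vps13d (−1.06), Samd4 (−1.14), Angptl7 (−3.64), Ash1l (−1.06) and Tnks (−0.93). Positive values were those of Fahd2a (0.83) and Hey1 (1.15). Single genes were not screened for an outlying library, since each group has 3.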

How the results depend on the processing

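Against 43 genes, the count moved by over 1.5 times with pseudocount 5 (65), no filter beyond a value above 0 (124), scaling to total reads (95), DESeq2 (480, with 28 of the 43 given an adjusted p and all 28 called), voom with sample quality weights (1573), the length and GC trend removed (16) and without both control sham replicate 3 and knockout TAC replicate 3 (1143). Leaving out each library in turn gave 8 to 755. Without robust moderation there were 48, with pseudocount 0.5 38, with the filter raised from 10 to 50, 45, with TMM scaling 44, with upper quartile scaling 48 and with edgeR 40, of which 39 were among the 43. The share of positive calls was 204 of 480 in DESeq2 and 742 of 1573 in voom; the cause was not tested.

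Replicate numbers are shared between groups, and the labels do not say that they pair samples. Of 18 same-numbered pairs 3 correlated over 0.1 (−0.072 to 0.25), and 7 of 12 libraries correlated best with their own number. No chance level was worked out for these values, so they cannot decide whether the numbers pair samples. The main fit did not use them. With the replicate block 47 genes passed, 40 of them among the 43, and with the length and GC trend removed as well 21.

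Of 816 medians of gene lists under other settings 80 moved by more than the SD of the library medians. With 3 libraries a group the median SE of an interaction was 0.28 on the log2 scale, and low genes such as Myl7 and Angptl7 have wider errors.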

Other observations

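Stress and housekeeping programmes outside the calls were measured too. Heat shock proteins had a median interaction of −0.14 over 17 genes with 0 calls in limma-trend, edgeR and DESeq2 and 1 positive call in voom. Among them Hsp90aa1, a cytosolic chaperone, had −1.02 ± 0.40, adjusted p = 0.22 (limma-trend). Immediate early genes, which respond within minutes to a stimulus, had a median of −0.28 over 21 genes and no unadjusted p under 0.05. The stress transcription factor Atf3 had −1.32 ± 1.13, an error nearly as large as its estimate. The integrated stress response list had a median of 0.13 (27 genes), and Gdf15, a stress cytokine, had −0.89 ± 0.96, adjusted p = 0.69. Circadian clock genes had a median of −0.19 (18 genes) and cell cycle genes 0.18 (35 genes). Muscle ubiquitin ligases with autophagy genes had 0.076 (20 genes), and each list held 0 calls in limma-trend and edgeR. Cell cycle genes held 1 negative and 1 positive call in DESeq2, and 1 and 2 in voom. The muscle list held 1 positive call in DESeq2, 4 in voom and 3 without control sham replicate 3 and knockout TAC replicate 3.

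Ion channel and calcium genes had a median of −0.36 over 25 genes with 0 calls in limma-trend and edgeR. DESeq2 called 2 negative and voom 3 negative and 1 positive. Without control sham replicate 3 and knockout TAC replicate 3 there were 3 negative and 1 positive. Ryr2, the calcium release channel of the sarcoplasmic reticulum, had −1.49 ± 0.32, adjusted p = 0.060, with a TAC estimate of 1.12 in controls and −0.37 in knockouts, and Atp2a2, the calcium pump, had −0.43 ± 0.29, adjusted p = 0.49. With the length and GC trend removed that list's median was −0.10. Mitochondrial ribosomal proteins had positive estimates in all 34 members tested (median 0.40, and 0.20 with the trend removed), and cytosolic ribosomal proteins had a median of 0.39 over 51 (and 0.16), both without a call in limma-trend or edgeR. Positive calls among the mitochondrial ones were 1 in DESeq2, 16 in voom and 12 without control sham replicate 3 and knockout TAC replicate 3, and among the cytosolic ones 0, 12 and 7. Grk5, a kinase of adrenergic receptors, had −0.85 ± 0.20, adjusted p = 0.075. Of the remaining lists, mitochondrially encoded genes had a median of 0.27, angiogenic genes 0.21 with Hey1 as their call, neurohumoral genes 0.065, cytokines and chemokines 0.036, smooth muscle markers 0.38, lymphocyte markers 0.72, neutrophil and mast cell markers 0.97, adipocyte markers −0.23 and Schwann and neuronal markers −0.084.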
